A study of Homo sapiens with 30 samples.

Results

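The responses of EA.hy926 endothelial cells to 2 secondary organic aerosols (SOA) were set against each other directly, SOANAP-SP against SOAβPIN-SP. The comparison used the 4 EA.hy926 libraries of each aerosol, 8 of the 30 libraries of the series, and was fitted together with the 4 clean air (CA) and 3 soot particle (SP) libraries of the same cells. Tested were the 10709 genes of the table that reached 30 counts in 3 or more of these 15 libraries. EA.hy926 is a line made by fusing a human umbilical vein endothelial cell with a cell of the A549/8 lung carcinoma line. It was grown on the basolateral side of a transwell insert whose apical side carried A549 cells, so it was not exposed directly in any group. SOANAP-SP was soot at 1 mg/ml aged together with naphthalene, an aromatic precursor of anthropogenic origin, at 4 mg/ml, and SOAβPIN-SP was the same soot aged with β-pinene, a biogenic terpene, at 4 mg/ml. These concentrations and their unit are those of the labels, while the study gives the same figures per volume of air. SP was fresh soot and CA the control without particles, and each exposure lasted 4 h. The study gives a higher calculated cellular deposition for SOANAP-SP than for SOAβPIN-SP, so kind and dose of the aerosol changed together. The labels place the SOAβPIN-SP libraries in experiments 34, 35, 37 and 38 and the SOANAP-SP libraries in experiments 42, 44, 46 and 49. No experiment held both, so aerosol and experiment cannot be told apart.

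Cells that meet a stress signal first transcribe immediate early genes, many of which encode transcription factors such as the AP-1 and NR4A families, and then the targets of these factors. Endothelial cells beneath an exposed epithelium can receive such signals through soluble mediators of the neighbouring cells or through compounds that pass the membrane. Pathways in which endothelial cells are known to respond include NF-κB, the integrated stress response, heat shock, the antioxidant factor NRF2 and TGF-β signalling, which shapes the vessel wall.

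The EA.hy926 libraries held 10003314 to 16610686 counts, those of SOAβPIN-SP 10255705 to 11707192 and those of SOANAP-SP 11297465 to 13784834. The leading principal component of log2 CPM over all EA.hy926 libraries carried 43.0% of the variance. It mainly set CA (scores of -31.3 to -24.9) apart from the particle exposures. The SOANAP-SP libraries scored 13.8 to 18.9, the SOAβPIN-SP libraries 5.49 to 9.02 and the SP libraries 2.81 to 8.07. SOANAP-SP and SOAβPIN-SP did not overlap on this component, whereas SOAβPIN-SP overlapped SP. Yet pairs of libraries from different aerosols were only a little farther apart (root mean square log2 distance 0.273 to 0.362 over 16 pairs) than pairs of the same aerosol (0.224 to 0.348 over 12 pairs). Of 10 endothelial markers 9 were in the table, and their summed normalized counts were 17653 to 19101 with SOANAP-SP and 15360.2 to 18857 with SOAβPIN-SP. VE-cadherin (CDH5), TEK and TIE1 were abundant, whereas VWF was low at 7.91 to 22.2 normalized counts in these 8 libraries. All 12 epithelial markers were in the table, with sums of 22209 to 23850.1 and 22298 to 25576. These sums came almost wholly from KRT7, KRT8 and KRT18, while CDH1, FGG and MUC5AC lay at or below 1 normalized count in all 8 libraries. None of the markers was among the called genes. In such bulk libraries, fewer cells of a type and less RNA per cell cannot be told apart.

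A gene was called when edgeR's quasi-likelihood test gave a Benjamini-Hochberg adjusted p of 0.05 or less and the log2 fold change was at least 0.5 in size. By this rule 64 of the 10709 genes (0.598%) differed between the aerosols in EA.hy926 cells. With SOANAP-SP, 28 genes (0.261%) were higher and 36 (0.336%) were lower. The median log2 fold change of all tested genes was 0.0033, and 1325 genes had an unadjusted p under 0.05. A further 29 genes passed the adjusted p but not the size, 13 higher and 16 lower. In all 28 higher genes every SOANAP-SP library lay above every SOAβPIN-SP library, and in 35 of the 36 lower genes every one lay below, with CDC42EP3 as the exception. Of all tested genes, 4.09% were separated in this way upwards and 4.11% downwards. Leaving out SOAβPIN-SP replicate 2, SOAβPIN-SP replicate 3 or SOANAP-SP replicate 1 lowered the number of called genes to 32, 37 and 36, so the length of the list rested on single libraries.

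**Figure D1:**
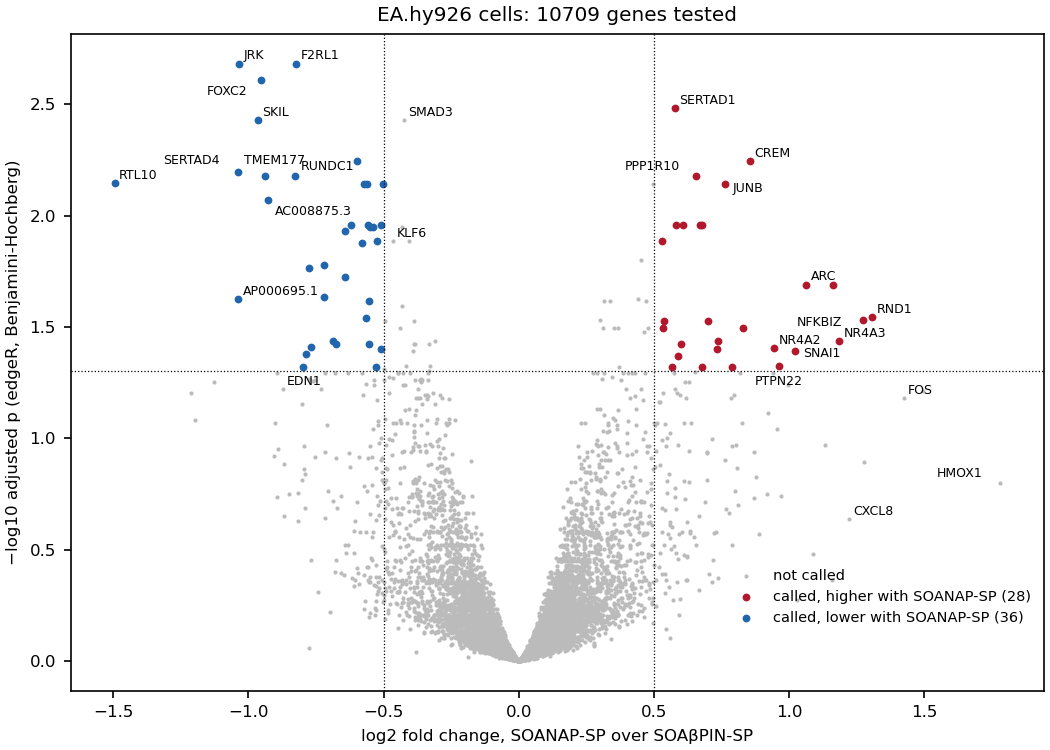
Each point is 1 of 10709 tested genes in EA.hy926 cells. The x axis gives the log2 fold change of SOANAP-SP over SOAβPIN-SP and the y axis the −log10 of the adjusted p, with dotted lines at the thresholds. The 28 called higher genes (red) reach a log2 fold change of 1.31 and the 36 called lower genes (blue) reach -1.49, while HMOX1 and FOS lie farther to the right without passing the adjusted p.

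Transcription factors and other immediate early genes stood near the upper end of the list. NR4A3, an orphan nuclear receptor induced within minutes to hours of many stimuli, had 237, 338, 323 and 263 normalized counts in the SOANAP-SP libraries and 85.9, 173, 151 and 103 in the SOAβPIN-SP libraries. The groups did not overlap, and both lay above the CA libraries at 20.5, 48.5, 59.6 and 45.1. The log2 fold change between the aerosols was 1.18 ± 0.25 (SE, adjusted p = 0.0366 by edgeR), a 2.27-fold difference. Its relative NR4A2 had 489, 534, 399.8 and 657 with SOANAP-SP and 258, 273, 326 and 223 with SOAβPIN-SP, against 23.1, 30.03, 62.8 and 41 in CA (0.95 ± 0.21, adjusted p = 0.0393 by edgeR). Here every library of either aerosol was far above CA, and those of SOANAP-SP were the higher ones. The AP-1 subunit JUNB stood at 2128, 2471, 1826 and 2019 with SOANAP-SP and 1060.3, 1357, 1325 and 1240.3 with SOAβPIN-SP (0.76 ± 0.13, adjusted p = 0.00721 by edgeR). JUNB remained called without each of the 15 libraries in turn. NR4A2 and NR4A3 did not, and NR4A2 kept its call without 7 and NR4A3 without 8 of them (adjusted p of up to 0.108 and 0.0953).

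The cAMP-responsive element modulator CREM, which encodes activators and the inducible repressor ICER of genes with a cAMP response element (CRE), differed with the smallest relative error among the higher transcription factors. Its normalized counts were 1589, 2012, 2049 and 1574 with SOANAP-SP and 1129, 941, 1034 and 894 with SOAβPIN-SP, against 615, 547, 674 and 728 in CA. The SOANAP-SP libraries were the highest of all 15, and the log2 fold change was 0.85 ± 0.13 (adjusted p = 0.00567 by edgeR). SNAI1, a repressor of E-cadherin that is known from the transition of endothelial to mesenchymal cells, had 828, 1344, 523 and 769 with SOANAP-SP and 359, 454, 444 and 449 with SOAβPIN-SP. The latter lay within the CA range of 349 to 467, and replicate 2 of SOANAP-SP was well above the other 3 (1.02 ± 0.22, adjusted p = 0.0406 by edgeR). IER5L, a relative of the heat shock cofactor IER5, had 1955, 1834, 1487 and 1434 and 627, 1007, 1051 and 1095 (0.83 ± 0.17, adjusted p = 0.0318). With SOAβPIN-SP all 4 libraries lay below the CA mean of 1185 ± 259.9 (SD, n = 4), and all 4 SOANAP-SP libraries lay above it.

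NFKBIZ, the nuclear cofactor IκBζ that NF-κB needs for part of its target genes, had 83, 108, 53.7 and 111 normalized counts with SOANAP-SP, 52, 39, 39.5 and 16.7 with SOAβPIN-SP and 16.3, 15, 10.6 and 7.18 in CA. The lowest SOANAP-SP library was only just above the highest SOAβPIN-SP library (1.27 ± 0.27, adjusted p = 0.0294 by edgeR). Of the 17 tested NF-κB subunits and feedback genes it was the 1 that was called, beside 0.598% of all tested genes. Their median log2 fold change was 0.16 against 0.0033 over all tested genes. RND1, a small GTPase that opposes contraction of actin fibres, had the largest log2 fold change of the called genes that were higher, from 10.2, 11.1, 18 and 12.6 to 35, 33.3, 21.5 and 39.7 (1.31 ± 0.28, adjusted p = 0.0287). Its counts with SOAβPIN-SP were at the CA level (18.8, 10.4, 10.6 and 10.3), and it is a gene of low counts.

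ARC, an immediate early gene best known from neurons, had 1498, 2467, 1533 and 1307 normalized counts with SOANAP-SP and 919, 967, 839.8 and 534 with SOAβPIN-SP (1.06 ± 0.20, adjusted p = 0.0204 by edgeR). Replicate 4 of SOAβPIN-SP was at the level of CA and the other 3 were above it. The tyrosine phosphatase PTPN22, known from lymphocytes, went from 41.8, 36.8, 32.3 and 40.8 to 76, 85, 57.2 and 79.5 (0.96 ± 0.23, adjusted p = 0.0474). TNFSF9, the ligand of the costimulatory receptor 4-1BB, went from 1746, 2202, 2264 and 2228 to 3334, 3123, 3218 and 2579 (0.54 ± 0.11, adjusted p = 0.0298). These are genes of signalling between cells or within them, and all were above CA with SOANAP-SP. AL024507.3, a long non-coding RNA whose only exon overlaps SEC63 on the opposite strand, also passed (0.79 ± 0.18, adjusted p = 0.0478). Whether strand was used in counting is not given in the sources used here, so its reads cannot be told apart from those of SEC63.

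**Figure D2:**
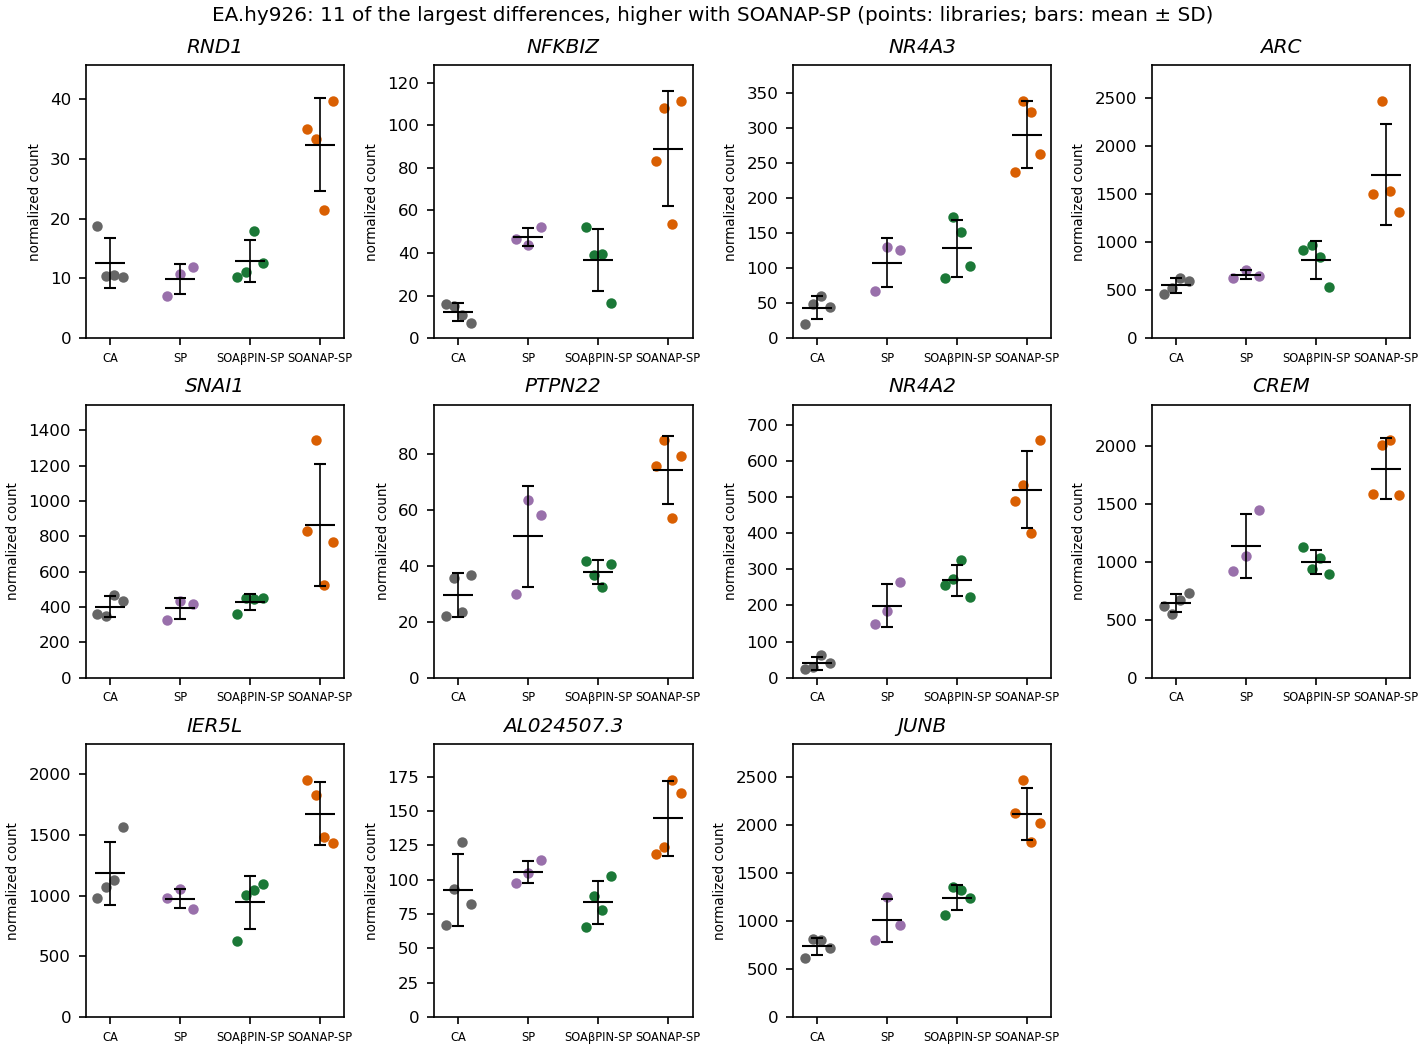
Normalized counts of 11 genes with large log2 fold changes among the called higher genes, 1 panel per gene. Points are libraries (4 CA, 3 SP, 4 SOAβPIN-SP, 4 SOANAP-SP) and the bars give the mean and its SD. In each panel all SOANAP-SP points lie above the SOAβPIN-SP points, and in RND1 and SNAI1 the SOAβPIN-SP points are at the level of CA.

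The ATF4, heat shock and NRF2 lists held 1 called gene each, all higher with SOANAP-SP. Over all tested genes 0.598% were called and the median log2 fold change was 0.0033, so 1 call says little about a list. PPP1R15A (GADD34), the subunit that directs a phosphatase to eIF2α and so ends the integrated stress response, had 8761, 9429, 5736 and 9495 normalized counts with SOANAP-SP and 5275, 5115, 4865 and 4794 with SOAβPIN-SP. CA stood at 1301, 2136, 1781 and 1592, so both aerosols were above CA and SOANAP-SP was 1.67-fold above SOAβPIN-SP (0.74 ± 0.15, adjusted p = 0.0366 by edgeR). It was the 1 called gene among 24 tested genes of the ATF4 response, whose median log2 fold change was -0.04. DNAJB1, the HSP40 partner that delivers damaged proteins to HSP70, had 4794, 5894, 5890.4 and 4120.1 and 3452, 3582, 3347 and 3207 (0.61 ± 0.11, adjusted p = 0.011). Its SOAβPIN-SP level did not leave the range of CA (3104, 3306, 3329.6 and 4189). It was the 1 called gene of 16 tested cytosolic heat shock genes, all 16 of which had a log2 fold change above 0 (median 0.14). DNAJA1, a second HSP40 protein, passed the adjusted p but not the size (0.31 ± 0.07, adjusted p = 0.0318). The inducible HSP70 genes HSPA1A and HSPA1B had values of 0.42 and 0.35 (adjusted p = 0.286 and 0.303). Reads of these near-identical copies cannot be assigned with certainty.

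OSGIN1, an oxidative stress-induced growth inhibitor and NRF2 target, had 1316, 1114, 1579.7 and 1317 normalized counts with SOANAP-SP and 675, 799, 843 and 958 with SOAβPIN-SP (0.70 ± 0.15, adjusted p = 0.0298 by edgeR). It was the 1 called gene among 27 tested NRF2 targets, beside 0.598% of all tested genes. Of these targets, 23 had a log2 fold change above 0 (median 0.12, against 0.0033 over all tested genes). HMOX1, the heme oxygenase that is the best known target of NRF2, had the largest log2 fold change of this list without passing the test (1.78 ± 0.54, adjusted p = 0.159). Its counts were 793, 539, 1805 and 806 with SOANAP-SP and 239, 292, 292 and 328 with SOAβPIN-SP, so the groups did not overlap. In CA, however, they ranged from 371 to 1869.8, and CA replicate 4 was above all SOANAP-SP libraries. The glutamate-cysteine ligase subunit GCLM and NQO1 had log2 fold changes of 0.46 and 0.19 (adjusted p = 0.101 and 0.194). ARG2, the mitochondrial arginase that uses the same substrate as nitric oxide synthase, went from 162, 136, 134 and 137 to 211, 225, 192 and 229.6 (0.59 ± 0.14, adjusted p = 0.0426).

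CCNL1, a cyclin of splicing complexes, had 713, 797, 480.4 and 729.5 normalized counts with SOANAP-SP and 399, 473, 413 and 413 with SOAβPIN-SP (0.68 ± 0.12, adjusted p = 0.011 by edgeR). PPP1R10 (PNUTS), a nuclear phosphatase regulator, had 1115, 1229, 935 and 1344 and 748, 747, 680.5 and 757 (0.66 ± 0.11, adjusted p = 0.00666). SERTAD1, which binds CDK4 and the E2F partner DP1, had the lowest adjusted p of the higher genes, with 2125, 2025, 2060.1 and 1633 and 1392, 1344, 1331 and 1196 (0.58 ± 0.08, adjusted p = 0.00328). In each of these 3 genes the groups did not overlap, although replicate 3 of SOANAP-SP was close to SOAβPIN-SP for CCNL1. The other called higher genes included the splicing-related anchor protein AKAP17A (0.67), the nuclear receptor coactivator PNRC1 (0.60), the mediator subunit MED26 (0.53), the zinc finger genes ZNF548 (0.73) and ZNF597 (0.58), the ubiquitin ligase RNF122 (0.57) and the calcium channel regulator CBARP (0.68).

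Promoter windows from RefSeq (GRCh38.p14, 250 bases before to 50 after the start site) were read for 48 of the 64 called genes, 20 higher and 28 lower, and searched on both strands. The full CRE, TGACGTCA, which reads the same on both strands, was present in 3 of the 20 windows of higher genes (15.0%), in 1 of the 28 of lower genes (3.57%), in 3.57% of the 8514 windows of tested genes and in 1.98% of all 27305 windows. It is shown here because CREM was among the called genes. The copies are given on the strand of the gene with 11 bases on either side and the element in capitals, and lie before the start site.
PPP1R15A, chr19:48872352-48872381, plus strand: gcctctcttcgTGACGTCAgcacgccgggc
CCNL1, chr3:157160215-157160244, minus strand: gcccggcgtggTGACGTCAgggcggaagcg
ARG2, chr14:67619737-67619766, plus strand: ccagagtggggTGACGTCAtcgaaggcacg
ARG2, chr14:67619845-67619874, plus strand: caatgtggcggTGACGTCAcggggcgggcg
SKIL, chr3:170357650-170357679, plus strand: cgaggactcggTGACGTCAgagggctgtgt
The first 3 genes were higher with SOANAP-SP and SKIL was lower. Relaxed forms of other elements were searched too. GCGTG, the core of the AHR element, was found in 80.0% of the windows of higher genes, 42.9% of those of lower genes and 52.5% of those of tested genes. TGCNCNC, the core of the metal element, was found in 60.0%, 82.1% and 63.5%. The shares for the NRF2 element TGACNNNGC were 4 of the 20 windows of higher genes, 17.9% and 15.4%, for the AP-1 site TGANTCA 5.00%, 3.57% and 4.45%, and for the hypoxia core ACGTG 15.0%, 25.0% and 28.0%. A match says that the letters occur in the window and not that a factor binds there.

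Of the lower genes, SKIL and ACVR1B belong to TGF-β and activin signalling. SKIL (SnoN), a repressor that binds SMAD proteins and is itself a TGF-β target, had 427, 366, 461 and 405 normalized counts with SOANAP-SP and 922, 882, 805 and 633 with SOAβPIN-SP (-0.97 ± 0.14, adjusted p = 0.00374 by edgeR). CA at 665, 633, 742 and 785 overlapped SOAβPIN-SP and lay above all SOANAP-SP libraries. ACVR1B, a type I receptor for activins, had 304, 357, 328 and 302 and 456, 460.5, 545 and 447, with CA at 479, 542, 481 and 433 (-0.56 ± 0.10, adjusted p = 0.00721). Both genes remained called without each of the 15 libraries in turn. ACVR1B was not on the list of TGF-β and BMP genes. SKIL was the 1 called of the 20 tested genes on this list (median log2 fold change -0.15), beside 0.598% of all tested genes. Further members that passed the adjusted p but not the size, named here after their values were seen, were the signal transducer SMAD3 (-0.42 ± 0.06, adjusted p = 0.00374), the receptors TGFBR2 (-0.50 ± 0.11, adjusted p = 0.0298) and TGFBR1 (-0.33 ± 0.08, adjusted p = 0.0472). SMAD3 had 1525, 1468, 1521 and 1494 with SOANAP-SP and 2049, 1973, 2095 and 1943 with SOAβPIN-SP, and CA at 1926, 1935, 2005 and 1915 was close to the latter. FST, the activin-binding follistatin, had the largest positive value on the list (0.94 ± 0.21, adjusted p = 0.0508) and SMAD7, an inhibitory SMAD, a value of -0.89 ± 0.26 (adjusted p = 0.111), neither past the threshold.

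F2RL1, the protease-activated receptor 2 by which endothelial cells sense trypsin-like and coagulation proteases, had 518, 556, 526 and 586 normalized counts with SOANAP-SP and 974, 929, 991 and 971 with SOAβPIN-SP. Both groups were tight, and SOAβPIN-SP was 1.77-fold higher (-0.82 ± 0.11, adjusted p = 0.00208 by edgeR), the lowest adjusted p of the comparison together with JRK. SP (1097, 895 and 849.9) and CA (969, 894, 1295 and 947) were near the level of SOAβPIN-SP, and each SOANAP-SP library was below all 11 libraries of the other groups. It was the 1 called of 17 tested genes of coagulation and fibrinolysis (list median -0.08), beside 0.598% of all tested genes. FOXC2, a forkhead factor of vascular and lymphatic development, had 382, 346, 422 and 454 and 551, 861, 859 and 830.0 (-0.95 ± 0.13, adjusted p = 0.00247). Again CA (662, 684, 873 and 709) lay with SOAβPIN-SP. Its exons overlap the antisense gene FOXC2-AS1. The homeobox gene HOXA10 had 49.996, 45.3, 57.2 and 65.1 and 96.1, 94.8, 87.5 and 93.2, both below CA at 234, 171, 175 and 183 (-0.78 ± 0.15, adjusted p = 0.0171).

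The largest decrease was that of RTL10, a gene derived from a retrotransposon Gag sequence, with 39, 25.9, 42.9 and 54.1 normalized counts with SOANAP-SP and 62.2, 107, 140.2 and 143 with SOAβPIN-SP (-1.49 ± 0.25, adjusted p = 0.00718 by edgeR). CA was higher than either aerosol (225, 211, 237 and 165). Its exons overlap GNB1L on the same strand, so the assignment of its reads is uncertain. SERTAD4, a relative of SERTAD1 that moved the other way, had 219, 179, 245 and 255 and 432, 478, 432 and 498 (-1.04 ± 0.16, adjusted p = 0.0064). JRK, which encodes a nuclear protein related to transposases, had 56, 60.1, 70.7 and 58.5 and 116, 107, 143 and 138, below CA at 234, 206, 234 and 186 (-1.03 ± 0.14, adjusted p = 0.00208). For RTL10 and JRK the SOAβPIN-SP libraries stood between those of CA and SOANAP-SP, and for SERTAD4 they overlapped CA. TMEM177, a mitochondrial protein of cytochrome oxidase assembly, had 92, 96.1, 88.6 and 107 and 227, 189.5, 149 and 169 (-0.94 ± 0.15, adjusted p = 0.00666). RUNDC1, a gene with few described roles, had 73, 83.2, 75.1 and 67.3 and 123, 132, 127 and 149.7 (-0.83 ± 0.14, adjusted p = 0.00666). The long non-coding RNAs AP000695.1 and AC008875.3 had log2 fold changes of -1.04 and -0.93 (adjusted p = 0.0238 and 0.00852).

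**Figure D3:**
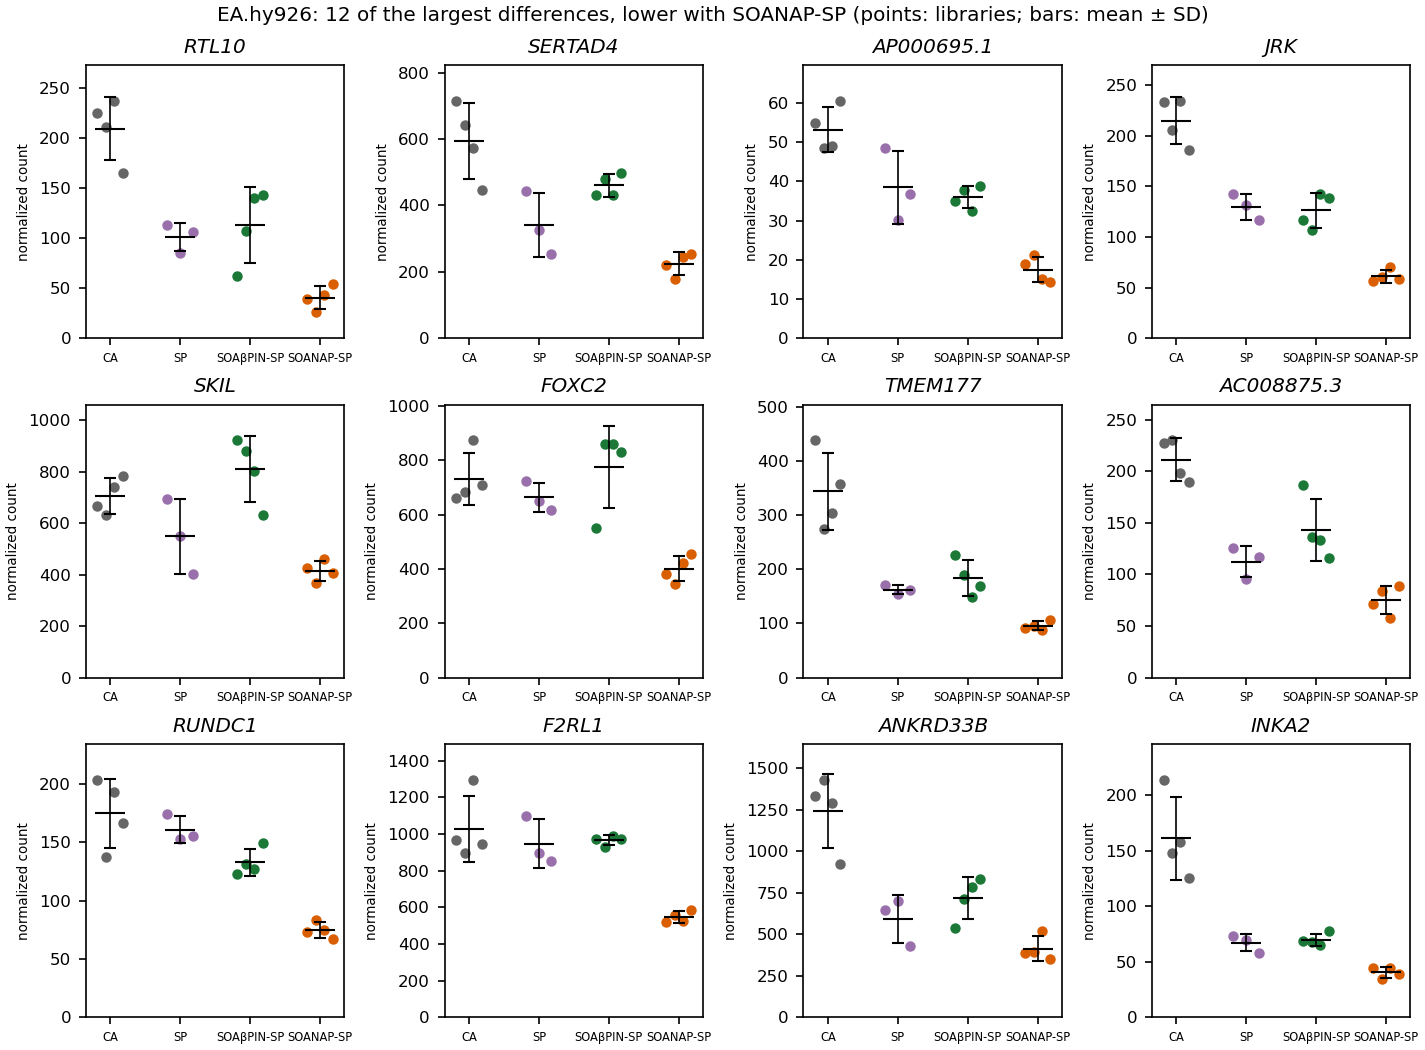
Normalized counts of the 12 genes with the largest decreases among the called lower genes, 1 panel per gene, with libraries as points and bars for the mean and its SD. All SOANAP-SP points lie below the SOAβPIN-SP points. For SKIL, FOXC2 and F2RL1 the SOAβPIN-SP points overlap those of CA, while for RTL10, JRK, TMEM177, ANKRD33B and INKA2 they lie below the CA points.

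RAP2B, a small GTPase of the Rap family, had 919.9, 963, 1119 and 885 normalized counts with SOANAP-SP and 1548, 1572, 1486 and 1284 with SOAβPIN-SP (-0.60 ± 0.09, adjusted p = 0.00567 by edgeR). INKA2, an inhibitor of the kinase PAK4, had 44, 34.2, 44.7 and 38.6 and 69, 68, 64.7 and 77.5 (-0.79 ± 0.18, adjusted p = 0.0419). MARCKS, an actin-binding substrate of protein kinase C (-0.53), the formin DAAM1 (-0.57), the CDC42 effector CDC42EP3 (-0.56) and the microtubule-associated MID1IP1 (-0.50) were called too. SESN1, a sestrin induced by p53, fell from 175, 217, 168 and 161 to 134, 128, 78.7 and 108 (-0.69 ± 0.15, adjusted p = 0.0366), with CA above both at 472, 346, 362 and 369. It was the 1 called of 25 tested p53 targets (median -0.03), beside 0.598% of all tested genes. CDKN1A had a value of 0.26 (adjusted p = 0.358). PPP1R3C, which targets a phosphatase to glycogen, went from 209, 259.8, 279 and 233 to 152, 187, 139 and 116 (-0.72 ± 0.14, adjusted p = 0.0166). ANKRD33B, an ankyrin repeat gene, had 385, 392, 521 and 351 with SOANAP-SP and 540.3, 712, 786 and 831 with SOAβPIN-SP (-0.80 ± 0.18, adjusted p = 0.0478).

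The other called lower genes had log2 fold changes of -0.77 to -0.51. They included the histidine methyltransferase METTL18 (-0.77), the RNA-binding protein RBM12B (-0.72), the chloride-proton exchanger CLCN4 (-0.67), the endosomal protein ANKRD50 (-0.62), the ubiquitin ligase adaptor KLHL9 (-0.57), the mitochondrial chaperone cofactor GRPEL2 (-0.51) and the lysosome-related genes HPS6 (-0.56) and AP5B1 (-0.54). The zinc finger genes ZNF697 (-0.64), ZNF646 (-0.55) and ZBED4 (-0.53) and the genes ITPRIPL2 (-0.64), ATXN7L3B (-0.58), C11orf68 (-0.55) and CTTNBP2NL (-0.51) complete the list.

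Exon number, which the test did not use, was low in many of the lower genes. In GENCODE v44 on GRCh38, the canonical transcripts of the 34 protein-coding lower genes had a median of 2 exons, against 9 for the 10178 tested protein-coding genes and 5 for the 27 higher ones. Transcripts of 1 or 2 exons made up 18 of these 34 (52.9%), 5 of the 27 higher genes (18.5%) and 5.96% of all tested genes. The lower genes ranged from 1 to 25 exons. The transcripts of the lower genes were also longer, with a median of 5702 bases against 3402, and those of the higher genes shorter at 2675. ATXN7L3B, FOXC2, HPS6, ITPRIPL2, KLHL9 and RAP2B consist of 1 exon, as do JUNB and IER5L among the higher genes. Over all tested protein-coding genes, the called ones included, the median log2 fold change was -0.15 over 171 tested genes of 1 exon, -0.06 over 436 genes of 2 exons and 0.0044 over 4476 genes of more than 10 exons. In A549 cells the same classes had medians of -0.02, 0.01 and -0.06. The share of protein-coding counts in genes of 1 or 2 exons was 6.05% to 7.37% in the SOANAP-SP libraries and 6.09% to 7.18% in the SOAβPIN-SP libraries, ranges that overlap, and the part of library composition in these values was not tested. The exons of 19 of the 64 called genes overlap another annotated gene, 4 of them on the same strand.

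The values against CA and SP place these differences. They come from the same fit and share the libraries of the aerosols, so they are given as each comparison's own counts. Against CA, 14.8% of all tested genes were called with SOANAP-SP and 11.2% with SOAβPIN-SP. Of the 28 higher genes, 26 were above CA with SOANAP-SP and 11 with SOAβPIN-SP. Of the 36 lower genes, 28 were below CA with SOANAP-SP and 15 with SOAβPIN-SP. DAAM1 and ANKRD50 were above CA with SOAβPIN-SP (log2 fold changes 0.63 and 0.68, adjusted p = 7.81e-04 and 2.41e-04 by edgeR) and had values of 0.06 and 0.06 with SOANAP-SP. Against SP, where 0.794% of all tested genes were called with SOANAP-SP, 16 of the 28 higher and 18 of the 36 lower genes were called in the same direction. SERTAD1, RUNDC1 and F2RL1 were among the clearest, with log2 fold changes of SOANAP-SP over SP of 0.88, -1.10 and -0.79. SOAβPIN-SP over SP gave values between -0.41 and 0.55 for all 64 genes with an adjusted p of 0.999 each. The share of all tested genes called for SOAβPIN-SP over SP was not counted, so this cannot be read as a trait of these genes.

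Most of the 31 gene lists held few or no called genes. The lists were immediate early transcription factors, MAP kinase feedback, EGF receptor ligands, cytokines, NF-κB, prostaglandins, the AHR battery, NRF2, ATF4, the unfolded protein response, heat shock, metallothioneins, endothelial and epithelial identity, coagulation, vasoactive factors, adhesion receptors, cholesterol, fatty acids, LXR, glycolysis, p53, the cell cycle, interferon, YAP, TGF-β, Notch and Wnt, matrix, ion channels, peroxide handling and the genes named by the study. The 23 tested immediate early factors held 4 called higher and 0 lower genes by edgeR, and 15 of the 23 had an unadjusted p under 0.05. Over all tested genes 0.598% were called and 12.4% had an unadjusted p under 0.05. Their median log2 fold change was 0.36 against 0.0033 over all tested genes. FOS (1.42 ± 0.34, adjusted p = 0.0658) and ATF3 (0.53 ± 0.13, adjusted p = 0.0629) missed the threshold. The libraries of the aerosols overlapped for FOS and did not for ATF3. KLF6, a zinc finger factor of the same list, passed the adjusted p in the other direction without reaching the size (-0.47 ± 0.09, adjusted p = 0.013).

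**Figure D4:**
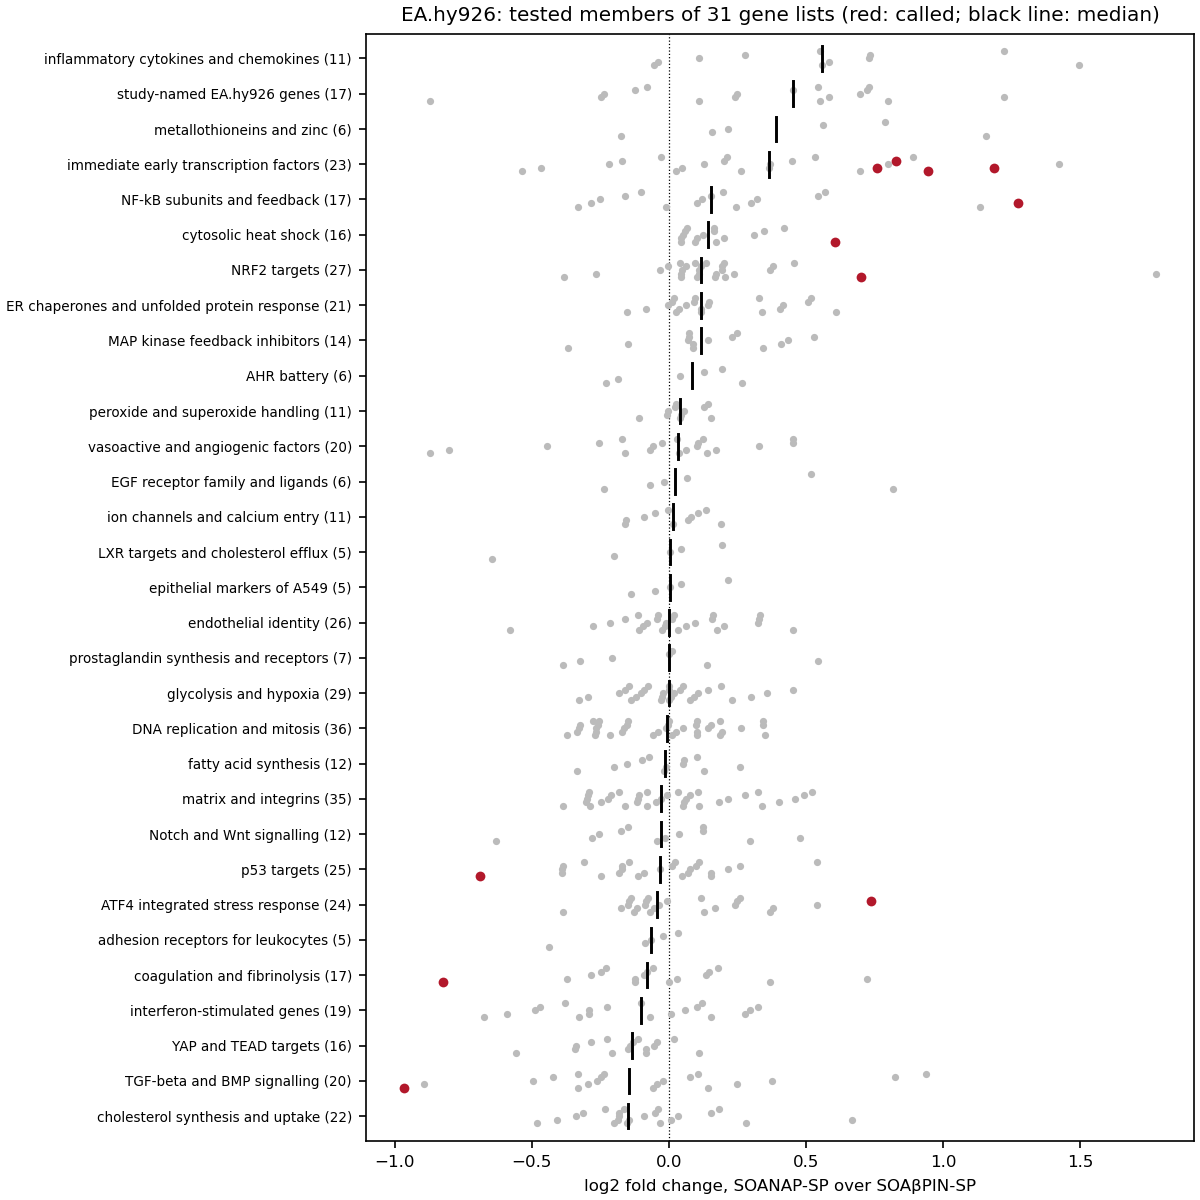
Log2 fold changes of SOANAP-SP over SOAβPIN-SP in EA.hy926 cells for the tested members of 31 gene lists, ordered by the list median (black line), with the number of tested members in parentheses. Called genes are red. The cytokine list, the genes named by the study, the metallothioneins and the immediate early factors have the highest medians (0.56, 0.45, 0.39 and 0.36), and the cholesterol list the lowest (-0.15).

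The 11 tested cytokine and chemokine genes had the highest median of all lists, 0.56, but 0 of them was called by edgeR, with 4 at an unadjusted p under 0.05. CXCL3 had 67, 73, 46.5 and 55.2 normalized counts with SOANAP-SP and 46.3, 19, 14.4 and 6.28 with SOAβPIN-SP (1.496 ± 0.37, adjusted p = 0.0615), and the groups did not overlap. CXCL8, the neutrophil attractant IL-8, had 3675, 5026, 2889 and 2512 and 2871, 869.7, 1604 and 705 (1.22 ± 0.43, adjusted p = 0.23). Replicate 1 of SOAβPIN-SP reached into the SOANAP-SP range and replicates 2 and 4 were far below it. IL6 had 209 ± 49.5 (SD, n = 4) and 143 ± 48 (0.55 ± 0.22, adjusted p = 0.27).

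In the lists without a called gene, the 2 members with the smallest p are given by their values. For the EGF receptor ligands these were AREG (0.82 ± 0.20, adjusted p = 0.0512 by edgeR) and HBEGF (0.52 ± 0.13, adjusted p = 0.0685), both with non-overlapping groups. Among MAP kinase feedback inhibitors they were the phosphatases DUSP5 (0.41, adjusted p = 0.0658) and DUSP6 (0.53, 0.102), and in the unfolded protein response the chaperone genes DNAJB9 (0.61, adjusted p = 0.0856) and SDF2L1 (0.51, 0.114). Vasoactive factors gave EDN1 (endothelin 1), with 764, 694, 606 and 483 normalized counts with SOANAP-SP and 1125, 1238, 1215 and 1091 with SOAβPIN-SP (-0.87 ± 0.21, adjusted p = 0.0603), and PDGFB (-0.80 ± 0.20, adjusted p = 0.07). All SOANAP-SP libraries of both genes were below those of SOAβPIN-SP, and the adjusted p missed the threshold. The endothelial identity genes had a median of 0.0022 over 26 tested members, with GIMAP6 (-0.58 ± 0.14, adjusted p = 0.0508) and the ETS factor FLI1 (-0.21, 0.278) first. Endothelial identity as a list therefore sat at the median of all genes.

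The AHR battery, which senses aromatic hydrocarbons, had a median of 0.09 over 6 tested genes, with NQO1 (0.19, adjusted p = 0.194 by edgeR) and ARNT (-0.23, 0.494) first. Metallothioneins and zinc genes had a median of 0.39 over 6 tested genes, with MT1E (0.79, adjusted p = 0.303) and the zinc exporter SLC30A1 (0.56, 0.315). For the cell cycle these were KIF20A (-0.34, adjusted p = 0.0512) and CCNA2 (-0.27, 0.122), for Notch and Wnt SOX4 (-0.63, 0.0508) and HEY1 (0.48, 0.241), and for the interferon-stimulated genes DDX58 (-0.38, 0.075) and OAS1 (-0.59, 0.121). In the matrix list LOX (-0.38, 0.0547) and TIMP3 (-0.29, 0.0642) came first, in the YAP list ANKRD1 (-0.56, 0.122) and AXL (-0.23, 0.218), and in cholesterol synthesis IDI1 (0.28, 0.143) and TM7SF2 (0.67, 0.222). In each pair the first value is the log2 fold change and the second the adjusted p. The fatty acid, LXR, glycolysis, adhesion, prostaglandin, ion channel, peroxide and epithelial lists had medians between -0.07 and 0.04 with 0 called members by edgeR. Their unadjusted p was under 0.05 for 1, 1 and 6 genes of the first 3 of these lists and for 0 genes of the others.

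The study itself names 17 genes for EA.hy926 cells, a list that was drawn from these libraries and is no independent evidence. Its differential expression compared each aerosol with CA, so the comparison given here is another one. By edgeR, 0 of the 17 was called between the 2 aerosols and 9 had an unadjusted p under 0.05. The log2 fold changes and adjusted p were 1.22 (0.23) for CXCL8, 0.80 (0.172) for NR4A1, 0.73 (0.263) for IL11, 0.72 (0.268) for SERPINB2, 0.70 (0.115) for FOSB and 0.59 (0.441) for IL1A. The stress factors FOSB and NR4A1 had means of 1098 ± 364 and 747 ± 172 (SD, n = 4) with SOANAP-SP, 678 ± 49 and 429.6 ± 98.9 with SOAβPIN-SP and 115 ± 30.6 and 94.8 ± 39.4 in CA. Both aerosols were above CA for both genes (adjusted p of 2.54e-06 or less for FOSB and 1.23e-04 or less for NR4A1 by edgeR), whereas the step from SOAβPIN-SP to SOANAP-SP did not pass. IL6 (0.55), BIRC3 (0.54), ADM (0.45), ERRFI1 (0.25), ATF4 (0.24) and BTG1 (0.11) had values above 0 and FLT1 (-0.08), TFPI (-0.12), EGFR (-0.24), PLAT (-0.25) and EDN1 (-0.87) below 0. The vasodilator peptide ADM (adrenomedullin) was 2326 ± 421 with SOANAP-SP and 1697 ± 247 with SOAβPIN-SP (SD, n = 4, adjusted p = 0.24).

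The A549 cells on the apical side of the same inserts allow the same comparison in cells exposed directly. There 406 genes were called higher and 475 lower with SOANAP-SP. In total 881 of 11775 genes (7.48%) were called, against 0.598% in EA.hy926 cells. Without SOANAP-SP replicate 3 this number was 569. Of the 28 genes higher in EA.hy926 cells, 26 were tested in A549 cells, 23 had the same sign and 18 were called in the same direction. ARC (1.54), SNAI1 (1.91), NR4A3 (1.43), PPP1R15A (1.21) and DNAJB1 (0.96) had log2 fold changes in A549 cells at least as large as in EA.hy926 cells. Their A549 means with SOAβPIN-SP were all below the CA mean. With SOANAP-SP, NR4A3 and DNAJB1 were below CA too, at 1494 against 1606 and 8970 against 11126 normalized counts. ARC, SNAI1 and PPP1R15A were above CA, at 285 against 210, 2427 against 1006 and 17713 against 9548. These means are given as a description. Of the 36 lower genes, 33 were tested in A549 cells, 27 had the same sign and 8 were called in the same direction, RTL10 (-1.62) and SESN1 (-1.07) among them. The median log2 fold change in A549 cells was 0.74 over the tested higher genes and -0.31 over the tested lower genes. The share of all genes with the same sign in both lines was not counted. Both lines came from the same experiments, so a like sign in both cannot tell aerosol from experiment.

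An interaction term over all 30 libraries tested whether the difference between the aerosols was of unlike size in the 2 lines, and 178 of 9900 genes (1.8%) were called. This number was as low as 86 without SOANAP-SP replicate 4 of both cell lines. The fit held no term for the coculture, so the pairing of A549 and EA.hy926 libraries from the same experiment was not used. Of the 59 genes called in EA.hy926 cells and tested in both lines, 9 were called for the interaction. These 59 genes were picked from the same EA.hy926 libraries that enter the interaction. Their count therefore cannot be set against the share over all genes. SKIL was lower with SOANAP-SP in EA.hy926 cells (-0.97) and had 0.34 in A549 cells (interaction -1.32 ± 0.21, adjusted p = 9.97e-04 by edgeR). OSGIN1 was higher in EA.hy926 cells (0.70) and lower in A549 cells (-0.86, adjusted p = 0.0254), so the 2 lines moved in opposite directions (interaction 1.55 ± 0.30, adjusted p = 0.00502). CREM had 0.85 in EA.hy926 and 0.14 in A549 cells (interaction 0.70 ± 0.17, adjusted p = 0.021). The interaction was also negative for JRK (-0.93 ± 0.23, adjusted p = 0.0212), RBM12B (-1.23 ± 0.26, adjusted p = 0.00731), RAP2B (-0.54 ± 0.12, adjusted p = 0.0156), PPP1R3C (-0.92 ± 0.23, adjusted p = 0.027) and ANKRD33B (-1.08 ± 0.28, adjusted p = 0.0402). These values compare the log2 fold changes of the 2 lines and not their expression levels. For ZNF548 the interaction was positive (1.56 ± 0.41, adjusted p = 0.0394). Its counts in A549 cells were low, with means of 16.7 with SOAβPIN-SP and 9.67 with SOANAP-SP. Its exons overlap other annotated genes on the same strand, so the assignment of its reads is uncertain.

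Genes that were not called in EA.hy926 cells could still differ between the lines. The most certain interaction of all was that of KLF6, chosen after its values were seen, which was -0.47 in EA.hy926 cells and 0.89 in A549 cells (interaction -1.36 ± 0.16, adjusted p = 8.19e-06 by edgeR). EDN1 had -0.87 in EA.hy926 and 0.38 in A549 cells (-1.26 ± 0.24, adjusted p = 0.00487), and HMOX1 had 1.78 and -0.57 (2.34 ± 0.54, adjusted p = 0.024).

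**Figure D5:**
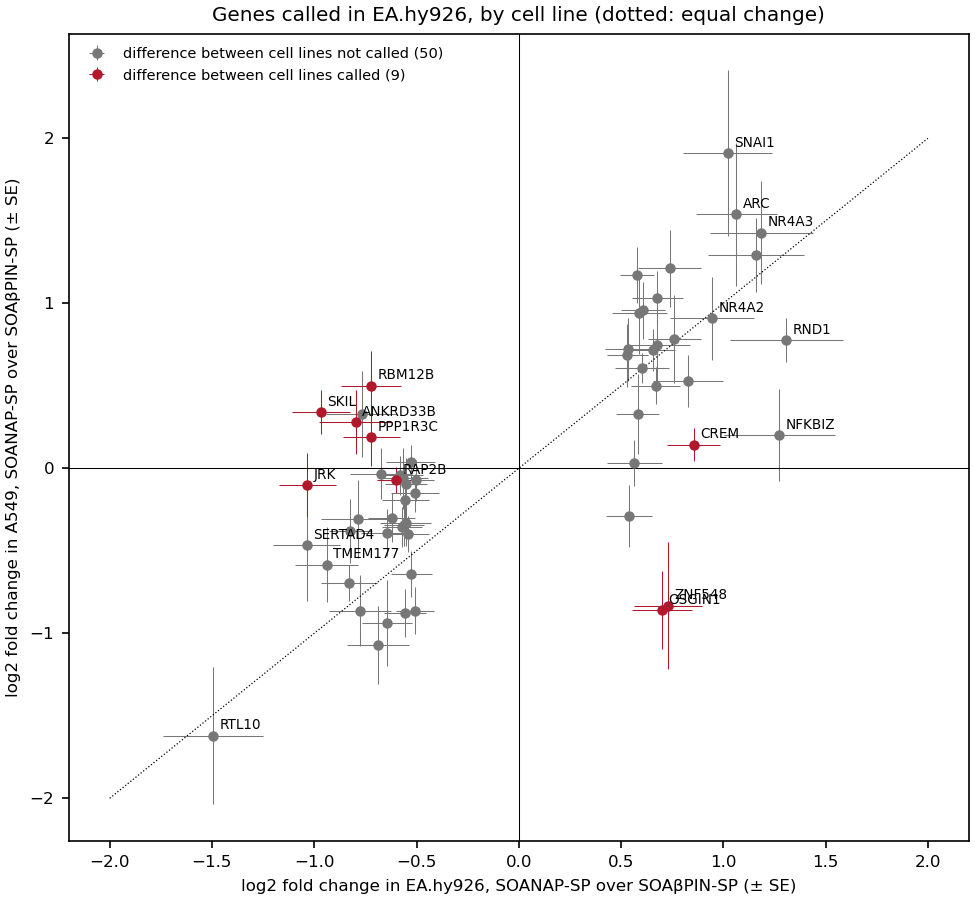
Log2 fold changes of SOANAP-SP over SOAβPIN-SP in EA.hy926 cells (x axis) and A549 cells (y axis) for the 59 genes called in EA.hy926 cells and tested in both, with bars for the SE and a dotted line of equal change. Red points are the 9 genes whose difference between the lines was called, with OSGIN1 and ZNF548 below 0 on the y axis and SKIL and RBM12B above it.

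Of the 64 genes, 23 were called without each of the 15 libraries in turn and in every other setting in which they were tested. The 7 higher ones were CREM, JUNB, CCNL1, AKAP17A, PPP1R10, DNAJB1 and SERTAD1. The 16 lower ones were RTL10, SERTAD4, JRK, SKIL, FOXC2, TMEM177, AC008875.3, RUNDC1, F2RL1, ZNF697, ANKRD50, RAP2B, KLHL9, ACVR1B, HPS6 and AP5B1. The other 41 lost the call without at least 1 library, 33 of them without SOAβPIN-SP replicate 2 and 30 each without SOAβPIN-SP replicate 3 and SOANAP-SP replicate 1. Their highest adjusted p without 1 library was between 0.027 and 0.149, and a gene under 0.05 had missed the size. The least stable were MARCKS, AL024507.3 and CBARP, which kept the call without 4 of the 15 libraries (adjusted p of up to 0.127, 0.132 and 0.146), RNF122, which kept it without 5 (up to 0.149), and PNRC1, INKA2 and ANKRD33B, which kept it without 6 (up to 0.125, 0.108 and 0.127). CBARP was also called in only 7 of 12 other settings, METTL18 and PTPN22 in 9 of 12, and ANKRD33B and SNAI1 in 9 of 13. NR4A2, ZNF548, METTL18, PTPN22 and SNAI1 kept the call without 7 libraries, TNFSF9, PPP1R15A, ARG2, CLCN4 and NR4A3 without 8, OSGIN1, RND1, ZNF646 and NFKBIZ without 9, and AP000695.1, GRPEL2, SESN1 and RBM12B without 10. CDC42EP3, DAAM1 and IER5L kept it without 11, ITPRIPL2, ZBED4, CTTNBP2NL, HOXA10 and PPP1R3C without 12, MED26 and MID1IP1 without 13, and ATXN7L3B, C11orf68, ZNF597 and ARC without 14. The 2 experiments that held an aerosol and CA together allow a description with 1 library each, SOANAP-SP replicate 1 with CA replicate 3 (experiment 42) and SOAβPIN-SP replicate 4 with CA replicate 2 (experiment 38). Taking each aerosol relative to the CA library of its own experiment, 62 of the 64 called genes kept the sign of the fit, 27 of 28 higher and 35 of 36 lower genes, against 64.4% of all tested genes. The medians within experiments were 0.63 for the higher and -0.81 for the lower genes, beside 0.72 and -0.66 in the fit. The exceptions in sign were AL024507.3 (-0.23) and DAAM1 (0.06). For 11 of the 64 genes, these exceptions included, the value was under 0.5 times that of the fit. Among them were NR4A2 (0.11 within experiments, 0.95 in the fit), ARG2 (0.04 and 0.59), AKAP17A (0.18 and 0.67), SNAI1 (0.46 and 1.02), ZNF548 (0.13 and 0.73), SESN1 (-0.33 and -0.69), ATXN7L3B (-0.25 and -0.58) and GRPEL2 (-0.05 and -0.51). F2RL1 had -1.44 and -0.82, and CREM 0.53 and 0.85. These libraries are part of the fit, so this is no independent check.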

How the data were processed

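Poly-A RNA of A549 and EA.hy926 cells was sequenced. The raw counts were made by the authors with cutadapt, STAR 2.7.3a, removal of duplicates by molecular identifier, and htseq-count of uniquely mapped reads, and were deposited per cell line. Their methods name GRCh38, while the submitters' processing notes name GRCm38. Gene names and IDs are human. The deposited normalized values, which are counts divided by DESeq2 (1.26.0) size factors and so a scaled signal, served 1 alternative (log2 of value + 1, in limma). The authors' own tests used limma-voom with a correction for a sequencing batch that the labels do not name.

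The 15 EA.hy926 libraries (10003314 to 16610686 counts) were fitted with edgeR 4.0.16 (R 4.3.3, TMM scaling, robust quasi-likelihood, exposure as the only term), for genes that reached 30 counts in 3 or more of them. The SE was taken from the F statistic. Normalized counts are TMM-scaled to the mean effective library size. P-values were adjusted over all tested genes. The difference between cell lines was fitted over all 30 libraries, without a term for the coculture. Experiments are those of the labels. Alternatives used limma 3.58.1, DESeq2 1.42.0, sva 3.50.0, other filters, scalings and thresholds, a replicate block, thinned counts and each library left out, and scripts were tested on simulated data. Values within experiments used a prior count of 2. Exons and transcripts are those of GENCODE v44 and promoter windows those of RefSeq, matched by symbol.

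The members, gene lists and tests were chosen with earlier results of these data known. Named were the 12 largest non-overlapping changes in each direction, up to 4 called members of a list or, with none called, up to 2 members of smallest p, the 17 genes named by the study, and the other called genes, except for 2 called genes that are counted but not reported here by name. ATF3, CDKN1A, DNAJA1, FOS, FST, GCLM, HMOX1, HSPA1A, HSPA1B, KLF6, NQO1 as an NRF2 target, SMAD3, SMAD7, TGFBR1 and TGFBR2 were named after their values were seen.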

Additional observations from a re-analysis of the deposited data

Results flagged for a closer look

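A library far from the other 3 of its group was looked for in the 128 groups formed by the 64 called genes and both aerosols, and 8 groups had one by Dixon's criterion, where chance alone gives about 1 in 20. For SOAβPIN-SP these were replicate 1 for ARG2 (162 normalized counts), FOXC2 (551), SNAI1 (359) and TNFSF9 (1746.5), and replicate 3 for ACVR1B (545) and PPP1R10 (680.5). For SOANAP-SP it was replicate 2 for METTL18 (21.3) and ZNF548 (136). The library of ARG2 lay toward SOANAP-SP, as did that of FOXC2, while those of ACVR1B, PPP1R10, SNAI1 and TNFSF9 lay away from it.

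The difference between the aerosols was of unlike size in EA.hy926 and A549 cells, by the interaction test of edgeR, for 12 of the named genes. These genes were named from values of the same libraries, so their number is a description. On the log2 scale EA.hy926 minus A549 was 2.34 for HMOX1, 1.56 for ZNF548 (low counts in A549 cells), 1.55 for OSGIN1 and 0.70 for CREM. It was -1.36 for KLF6, -1.32 for SKIL, -1.26 for EDN1, -1.23 for RBM12B, -1.08 for ANKRD33B, -0.93 for JRK, -0.92 for PPP1R3C and -0.54 for RAP2B.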

How the results depend on the processing

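Against 64 called genes (28 higher, 36 lower), DESeq2 gave 135 (64 and 71), 1 surrogate variable 120 (53 and 67), the 8 libraries alone 98 (56 lower) and a CPM of at least 30 gave 42 (18 higher). The cause of these shifts was not tested, apart from the fewer genes tested under the last filter. The other settings gave 60 to 93. The higher genes made up 43.8% of the calls, 32.9% with the deposited normalized values (73 calls) and, with library totals as the scaling, 36.9% (84 calls). Leaving out 1 library gave 32 to 88 calls, 10 to 38 higher and 22 to 50 lower. By the labels, SOAβPIN-SP and SOANAP-SP libraries of the same replicate number came from different experiments. The correlations of their deviations were 0.0416 to 0.145. For SOANAP-SP replicates 1, 3 and 4 the best match was the SOAβPIN-SP library of the same number, and for replicate 2 it was replicate 3. The replicate block gave 88 calls, 61 of them shared. For the difference between cell lines, DESeq2 gave 278 calls, the replicate block of cocultures 195 and leaving out 1 coculture 86 to 218, against 178. In A549 cells leaving out 1 library, an alternative added after seeing the data, gave 569 to 1093 calls against 881. Within experiments AL024507.3 (-0.231) and DAAM1 (0.0611) reversed. With 4 libraries per group, a call required a difference that was large relative to the spread among libraries of the same exposure. Aerosol, dose and experiment changed together, so a shift between the experiments of the aerosols could be called as well.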
